A study of Mus musculus with 18 samples.

Results

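The 10 core circadian clock genes Arntl, Clock, Npas2, Per1, Per2, Per3, Cry1, Nr1d1, Dbp and Tef were examined in mouse liver. They were chosen by symbol from the 54752 genes of the deposited count table, and all 10 were found and passed the filter on low counts. The study sequenced ribosomal RNA-depleted total RNA from the livers of 18 male C57BL/6 mice, a common inbred strain, with 6 mice in each of 3 groups. The Cirrhosis-PTH mice received carbon tetrachloride (CCl4), a liver toxin that produces fibrosis on repeated dosing, together with Pien Tze Huang (PTH), a traditional Chinese medicine preparation. The Cirrhosis mice received the same CCl4 with double distilled water by mouth. The Control mice received corn oil and double distilled water. CCl4 was a 10% mixture in corn oil, and injections into the peritoneum were given at 10 µl per g, 2 times a week. PTH came as a 50 mg/ml solution and was given daily at 0.25 mg per g. Livers were taken after 12 weeks from mice bought at 6 weeks of age and kept in a 12 h light and 12 h dark cycle with free access to food. The labels state 15 mice per group, of which 6 per group have libraries here, and PTH was not given to mice without CCl4.

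The clock is a feedback loop of transcription that runs in almost every cell, including hepatocytes. ARNTL (BMAL1) pairs with CLOCK or its relative NPAS2 and switches on genes through E-boxes, among them the Per, Cry and Nr1d1 genes, and PER and CRY proteins then repress that pair. NR1D1 (REV-ERBα) represses Arntl through RORE elements, while DBP and TEF carry the rhythm to liver metabolism through D-boxes. The hour of the day at which livers were taken is not given in the sources used here, and each mouse was sampled once. A change in the level of a clock transcript and a shift in the timing of its rhythm therefore cannot be told apart in any result below.

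Library totals ranged from 62.5 M to 112 M counts (M, mega), of which 31.4 to 60.8% lay at ribosomal RNA loci, and 24.5 M to 67.5 M counts lay elsewhere. Levels are given as CPM, the counts of a gene per M counts of its library, after scaling the library totals with trimmed means of M values (TMM). Fold changes come from one edgeR quasi-likelihood fit to all 18 libraries, and every adjusted p is Benjamini-Hochberg adjusted over the 21914 genes tested. A gene was called where the adjusted p was under 0.05. The comparisons share libraries, so the values of each are set side by side without a test of one against another.

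Most of the clock genes differed in Cirrhosis livers from both other groups, with Arntl and Npas2 high and Per3, Nr1d1, Dbp and Tef low. Against Cirrhosis livers, 8 of the 10 genes were called in Cirrhosis-PTH livers, where 38.6% of all tested genes were called. Of these, 6 were higher (Per1, Per2, Per3, Nr1d1, Dbp and Tef) and 2 were lower (Arntl and Npas2). Against Control livers, 7 genes were called in Cirrhosis livers, where 50.5% of all tested genes were called: Arntl and Npas2 were higher, and Per2, Per3, Nr1d1, Dbp and Tef were lower. Between Cirrhosis-PTH and Control livers 2 genes were called, Per1 as higher and Nr1d1 as lower, where 8.82% of all tested genes were called. The median log2 fold change of the 10 genes was 0.67 for Cirrhosis-PTH against Cirrhosis, -0.34 for Cirrhosis against Control and 0.06 for Cirrhosis-PTH against Control, beside -0.0032, 0.015 and 0.0055 over all tested genes in the same 3 comparisons.

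**Figure D1:**
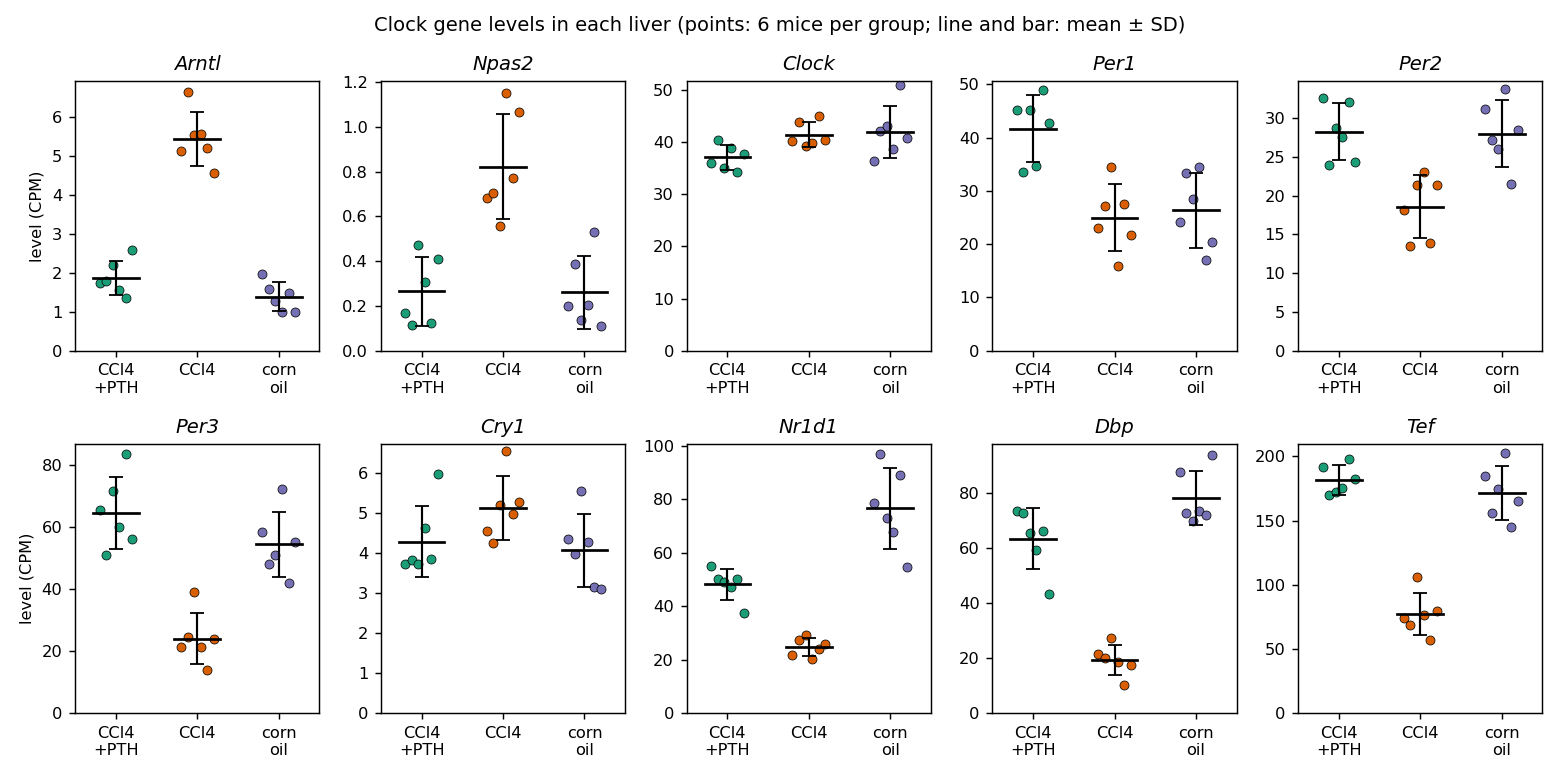
Level of each clock gene in CPM in every liver, with one panel per gene and its own axis from 0. Points are mice and bars are group means ± SD (n = 6 each), for CCl4 with PTH, CCl4 alone and corn oil from left to right. For Arntl the livers given CCl4 alone (4.56 to 6.64 CPM) lie above all other livers, and for Dbp (10.4 to 27.4 CPM) and Tef (57.4 to 106.5 CPM) they lie below all others.

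Arntl encodes the non-redundant activator of the loop and lies on the plus strand at chr7:113207465-113314126 (GRCm38). Its level was 1.36 CPM in the lowest, 1.76 in the median and 2.58 in the highest Cirrhosis-PTH liver, against 4.56, 5.37 and 6.64 CPM in Cirrhosis livers and 0.984, 1.38 and 1.96 CPM in Control livers. Every Cirrhosis liver was therefore above every liver of the other groups, while Cirrhosis-PTH and Control livers overlapped. Arntl fell 2.90-fold in Cirrhosis-PTH against Cirrhosis livers, a log2 fold change of -1.54 ± 0.18 (SE, adjusted p = 7.66e-07). It rose 3.93-fold in Cirrhosis against Control livers, a log2 fold change of 1.97 ± 0.18 (SE, adjusted p = 1.94e-08). Cirrhosis-PTH livers differed from Control livers by a log2 fold change of 0.44 ± 0.18 (SE), with an unadjusted 95% interval of 0.06 to 0.82, which did not pass after adjustment (adjusted p = 0.151).

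NPAS2 can take the place of CLOCK as the partner of ARNTL, and its gene lies at chr1:39193731-39363236 on the plus strand. Npas2 was sparse, with 8 to 44 counts per library in Cirrhosis-PTH livers, 61 to 135 in Cirrhosis livers and 4 to 26 in Control livers. Its level was 0.113, 0.238 and 0.474 CPM in the lowest, median and highest Cirrhosis-PTH liver, against 0.559, 0.739 and 1.15 CPM in Cirrhosis livers and 0.111, 0.201 and 0.529 CPM in Control livers. The Cirrhosis livers again stood above all others. Npas2 fell by 1.61 ± 0.40 on the log2 scale (SE, adjusted p = 0.00278) in Cirrhosis-PTH against Cirrhosis livers and was higher by 1.65 ± 0.41 (SE, adjusted p = 0.00197) in Cirrhosis against Control livers. The low counts left a wide 95% interval of -0.82 to 0.91 for the log2 difference between Cirrhosis-PTH and Control livers.

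Clock, which encodes the histone acetyltransferase partner of ARNTL and lies at chr5:76209868-76304792 on the minus strand, passed in no comparison. It measured 34.4, 36.8 and 40.5 CPM in the lowest, median and highest Cirrhosis-PTH liver, against 39.3, 40.4 and 44.9 CPM in Cirrhosis livers and 36.3, 41.4 and 50.9 CPM in Control livers. All 3 groups overlapped. Its log2 fold change was -0.16 ± 0.07 (SE, adjusted p = 0.0806) for Cirrhosis-PTH against Cirrhosis, and it passed at -0.16 without Control replicate 7 (adjusted p = 0.0411). It was -0.02 ± 0.07 (SE, adjusted p = 0.86) for Cirrhosis against Control. The partners of the activator pair thus differed in size of change, with 95% intervals of -0.17 to 0.13 for Clock and 1.59 to 2.36 for Arntl in Cirrhosis against Control livers.

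The promoter of Arntl carries RORE elements, the sites where NR1D1 represses. The window below is the second annotated start of Arntl, at chr7:113207261-113207560 on the plus strand, from RefSeq (GRCm38.p6). It is shown beside that of Nfil3, a gene outside the 10 whose product competes with DBP and TEF at D-boxes, at chr13:52980990-52981289 on the minus strand. Each runs from 250 bases before to 50 after the start site, 5′ to 3′, with the start base counted as 0, and capitals mark the RORE spelling searched, TAGGTCA on either strand. Other spellings of the element were not searched, so the capitals need not mark every RORE.
Arntl: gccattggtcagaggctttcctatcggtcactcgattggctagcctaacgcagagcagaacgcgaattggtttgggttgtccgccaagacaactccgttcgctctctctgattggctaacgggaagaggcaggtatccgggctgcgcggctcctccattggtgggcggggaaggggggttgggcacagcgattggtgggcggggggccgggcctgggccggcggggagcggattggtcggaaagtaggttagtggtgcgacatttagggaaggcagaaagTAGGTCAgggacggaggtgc
Nfil3: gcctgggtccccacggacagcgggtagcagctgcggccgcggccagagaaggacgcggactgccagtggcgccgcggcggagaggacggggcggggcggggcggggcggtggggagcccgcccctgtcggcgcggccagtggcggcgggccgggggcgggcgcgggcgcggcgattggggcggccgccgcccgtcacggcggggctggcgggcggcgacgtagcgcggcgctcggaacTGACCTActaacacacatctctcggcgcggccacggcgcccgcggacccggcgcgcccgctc
The Arntl match lies at bases 30 to 36 after the start, and the Nfil3 match lies on the opposite strand at -12 to -6. Among 32851 RefSeq promoter windows of this length, 2.61% hold the same letters, and Arntl was the 1 gene of the 9 clock genes with a window that held them. Nfil3 measured 5.54, 6.49 and 7.21 CPM in the lowest, median and highest Cirrhosis-PTH liver, against 12.3, 14.02 and 18.6 CPM in Cirrhosis livers and 6.28, 7.19 and 9.65 CPM in Control livers. It fell by 1.24 ± 0.13 on the log2 scale in Cirrhosis-PTH against Cirrhosis livers (SE, adjusted p = 1.86e-07), and was higher by 0.99 ± 0.13 in Cirrhosis against Control livers (SE, adjusted p = 1.52e-06). The match is a description of these letters and says nothing of binding in these livers.

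Nr1d1, the repressor of Arntl, moved in the opposite direction to it. It lies at chr11:98767932-98775333 on the minus strand and measured 37.5, 49.5 and 55.2 CPM in the lowest, median and highest Cirrhosis-PTH liver, against 20.3, 25.1 and 29.4 CPM in Cirrhosis livers and 54.6, 75.8 and 96.9 CPM in Control livers. Cirrhosis livers were below all others, and the highest Cirrhosis-PTH liver just reached the lowest Control liver. Nr1d1 rose 1.94-fold in Cirrhosis-PTH against Cirrhosis livers, a log2 fold change of 0.96 ± 0.12 (SE, adjusted p = 2.4e-06). It was 3.08-fold lower in Cirrhosis than in Control livers, a log2 fold change of -1.62 ± 0.12 (SE, adjusted p = 1.5e-09). It was also lower in Cirrhosis-PTH than in Control livers, by a log2 fold change of -0.67 ± 0.12 (SE, adjusted p = 0.00127), so its level with PTH lay between those of the other groups. Thra, a thyroid hormone receptor gene on the opposite strand, shares 263 exon bases with Nr1d1, 8.5% of its exon bases, and whether counting used the strand is not given in the sources used here. Thra itself changed by a log2 fold change of 0.53 ± 0.10 in Cirrhosis-PTH against Cirrhosis livers (SE, adjusted p = 0.000175) and by -0.52 ± 0.10 in Cirrhosis against Control livers (SE, adjusted p = 0.000155), both smaller than the changes of Nr1d1.

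The Nr1d1 window at chr11:98775328-98775627 on the minus strand is shown because Nr1d1 is itself a target of the ARNTL pair, and capitals mark the match to the E′-box CACGTT on the reverse strand, which 4.68% of all windows hold on either strand.
Nr1d1: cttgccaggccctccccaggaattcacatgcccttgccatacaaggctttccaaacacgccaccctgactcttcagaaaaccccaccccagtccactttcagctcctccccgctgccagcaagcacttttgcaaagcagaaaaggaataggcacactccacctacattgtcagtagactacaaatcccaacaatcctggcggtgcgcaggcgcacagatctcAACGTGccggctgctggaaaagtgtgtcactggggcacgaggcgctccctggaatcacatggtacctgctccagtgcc
The match lies at -28 to -23. Cry1 was the other clock gene with these letters, together with an E-box, CACGTG, which 7.15% of all windows hold.

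The Period genes encode the repressors whose amount sets the phase of the loop, and Per3 moved most. Per3 lies at chr4:151003652-151044665 on the minus strand and measured 51.0, 62.7 and 83.2 CPM in the lowest, median and highest Cirrhosis-PTH liver, against 14.1, 22.6 and 39.0 CPM in Cirrhosis livers and 42.0, 52.9 and 72.3 CPM in Control livers. Cirrhosis livers were below all others. Per3 rose 2.68-fold in Cirrhosis-PTH against Cirrhosis livers, a log2 fold change of 1.42 ± 0.19 (SE, adjusted p = 9.12e-06). It fell 2.26-fold in Cirrhosis against Control livers, a log2 fold change of -1.18 ± 0.19 (SE, adjusted p = 4.45e-05). The difference of 0.25 ± 0.19 between Cirrhosis-PTH and Control livers did not pass (SE, adjusted p = 0.478).

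Per2 lies at chr1:91415982-91459324 on the minus strand and changed less. It measured 23.9, 28.2 and 32.5 CPM in the lowest, median and highest Cirrhosis-PTH liver, against 13.6, 19.8 and 23.0 CPM in Cirrhosis livers and 21.5, 27.8 and 33.8 CPM in Control livers. Cirrhosis-PTH and Cirrhosis livers did not overlap, while Cirrhosis and Control livers did. Per2 was higher by 0.60 ± 0.13 on the log2 scale in Cirrhosis-PTH than in Cirrhosis livers (SE, adjusted p = 0.00105) and fell by 0.59 ± 0.13 in Cirrhosis against Control livers (SE, adjusted p = 0.000883). Between Cirrhosis-PTH and Control livers the 95% interval of the log2 difference was -0.27 to 0.29.

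Per1, which responds to glucocorticoid and light cues as well as to the loop, was called in Cirrhosis-PTH against Cirrhosis livers, as were Per2 and Per3, but not in Cirrhosis against Control livers. A difference between the Period genes was not tested. Per1 lies at chr11:69095217-69109960 on the plus strand and measured 33.5, 44.0 and 49.0 CPM in the lowest, median and highest Cirrhosis-PTH liver, against 15.8, 25.1 and 34.6 CPM in Cirrhosis livers and 17.1, 26.4 and 34.5 CPM in Control livers. Cirrhosis and Control livers spanned nearly the same range, and only the lower end of the Cirrhosis-PTH livers overlapped either. Per1 rose 1.67-fold in Cirrhosis-PTH against Cirrhosis livers, a log2 fold change of 0.74 ± 0.18 (SE, adjusted p = 0.00325). It was also higher in Cirrhosis-PTH than in Control livers, by 0.66 ± 0.18 (SE, adjusted p = 0.0299). That call was lost when any one of Control replicates 1, 7 or 8 or Cirrhosis-PTH replicates 1, 3, 5 or 6 was left out, with values of 0.64, 0.56, 0.60, 0.64, 0.64, 0.61 and 0.65 and adjusted p of 0.0549, 0.0551, 0.059, 0.0537, 0.0685, 0.0609 and 0.0601. Its log2 fold change between Cirrhosis and Control livers was -0.08 ± 0.18 (SE, adjusted p = 0.75).

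Cry1, the cryptochrome that represses the ARNTL pair directly, lies at chr10:85131700-85185064 on the minus strand. It measured 3.72, 3.84 and 5.98 CPM in the lowest, median and highest Cirrhosis-PTH liver, against 4.25, 5.09 and 6.56 CPM in Cirrhosis livers and 3.10, 4.13 and 5.55 CPM in Control livers. The 3 groups overlapped. Its log2 fold change was -0.26 ± 0.16 for Cirrhosis-PTH against Cirrhosis (SE, adjusted p = 0.206) and 0.33 ± 0.16 for Cirrhosis against Control (SE, adjusted p = 0.0832). Without Control replicate 3 the change in Cirrhosis against Control livers was 0.44 and passed (adjusted p = 0.0227).

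DBP and TEF are PAR bZIP transcription factors that bind D-boxes in genes of bile acid, drug and lipid metabolism. Dbp lies at chr7:45705088-45710203 on the plus strand and measured 43.4, 65.8 and 73.6 CPM in the lowest, median and highest Cirrhosis-PTH liver, against 10.4, 19.4 and 27.4 CPM in Cirrhosis livers and 69.8, 73.2 and 93.8 CPM in Control livers. Cirrhosis livers were below all others. Dbp rose 3.28-fold in Cirrhosis-PTH against Cirrhosis livers, a log2 fold change of 1.71 ± 0.17 (SE, adjusted p = 3.1e-07). It fell 4.04-fold in Cirrhosis against Control livers, a log2 fold change of -2.02 ± 0.18 (SE, adjusted p = 2.17e-08). Between Cirrhosis-PTH and Control livers the log2 difference was -0.30 ± 0.17 (SE, adjusted p = 0.303). Sphk2, a sphingosine kinase gene on the opposite strand, shares 539 exon bases with Dbp, 18.0% of its exon bases. Its own log2 fold change was 0.50 ± 0.11 in Cirrhosis-PTH against Cirrhosis livers (SE, adjusted p = 0.000759) and -0.45 ± 0.11 in Cirrhosis against Control livers (SE, adjusted p = 0.00145), smaller than the changes of Dbp, and reads of the shared bases cannot be assigned to either gene here.

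Tef, at chr15:81802421-81826863 on the plus strand, had the highest CPM of the 10 genes. It measured 170, 179 and 198 CPM in the lowest, median and highest Cirrhosis-PTH liver, against 57.4, 75.7 and 106.5 CPM in Cirrhosis livers and 145, 170 and 203 CPM in Control livers. Cirrhosis livers were again below all others, while the range of the Cirrhosis-PTH livers lay within that of the Control livers. Tef rose 2.35-fold in Cirrhosis-PTH against Cirrhosis livers, a log2 fold change of 1.23 ± 0.11 (SE, adjusted p = 3.28e-08). It fell 2.22-fold in Cirrhosis against Control livers, a log2 fold change of -1.15 ± 0.11 (SE, adjusted p = 2.97e-08). The 95% interval of the log2 difference between Cirrhosis-PTH and Control livers was -0.15 to 0.31.

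The windows of Per3, at chr4:151044616-151044915 on the minus strand, and of the first Tef start, at chr15:81802423-81802722 on the plus strand, are shown because they hold the 2 kinds of element through which the output and activator arms act. Capitals mark the D-box TTATGTAA in Per3 and the E-box CACGTG in Tef.
Per3: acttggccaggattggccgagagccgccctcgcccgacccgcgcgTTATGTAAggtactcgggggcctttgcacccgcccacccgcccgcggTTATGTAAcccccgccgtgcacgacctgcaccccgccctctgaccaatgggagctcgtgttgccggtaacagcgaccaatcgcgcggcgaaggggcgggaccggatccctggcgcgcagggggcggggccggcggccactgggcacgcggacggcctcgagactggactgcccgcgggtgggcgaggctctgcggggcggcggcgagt
Tef: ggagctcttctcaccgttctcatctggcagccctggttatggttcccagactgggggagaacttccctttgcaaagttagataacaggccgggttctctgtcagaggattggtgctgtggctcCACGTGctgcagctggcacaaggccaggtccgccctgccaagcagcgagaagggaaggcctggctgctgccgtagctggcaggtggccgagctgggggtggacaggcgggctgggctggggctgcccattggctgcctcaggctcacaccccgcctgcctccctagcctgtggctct
Per3 holds D-box letters at -205 to -198 and at -158 to -151, and was the 1 gene of the 9 with any. The search took TTACATAA, TTACGTAA, TTATATAA and TTATGTAA on both strands, and 1.59% of all windows hold one of these. An E-box was present in the windows of Per1, Cry1 and Tef. The windows of Dbp, Npas2 and Clock held none of the E-box, E′-box, D-box or RORE spellings searched.

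**Figure D2:**
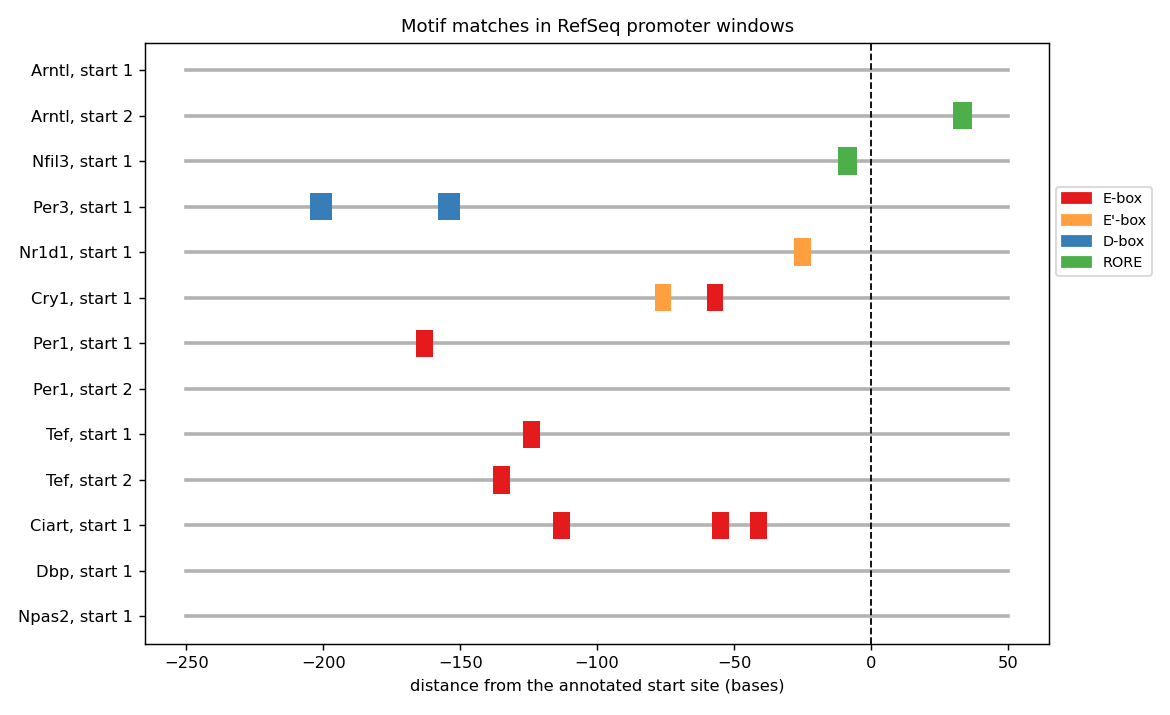
Matches to the searched clock elements in the promoter windows, drawn by distance in bases from the annotated start site on the horizontal axis, with one line per window and one colour per element, for 8 clock genes and, outside the 10, Nfil3 and Ciart. The Arntl RORE lies after the start at 30 to 36, and the D-box pair of Per3 lies at -205 and -158.

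Counted by library, 7 of the 10 genes had no overlap between Cirrhosis-PTH and Cirrhosis livers (Per2, Per3, Nr1d1, Dbp and Tef higher, Arntl and Npas2 lower), where 22.8% of all tested genes had none. Between Cirrhosis and Control livers 6 genes had no overlap (Arntl and Npas2 higher, Per3, Nr1d1, Dbp and Tef lower), where 30.3% of all tested genes had none. Between Cirrhosis-PTH and Control livers 0 of the 10 had no overlap, where 4.47% of all tested genes had none. Leaving out any single library kept the log2 fold change of Arntl between -1.65 and -1.46 for Cirrhosis-PTH against Cirrhosis, and that of Dbp between 1.59 and 1.84. For Cirrhosis against Control the ranges were 1.89 to 2.1 for Arntl and -2.14 to -1.89 for Dbp.

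**Figure D3:**
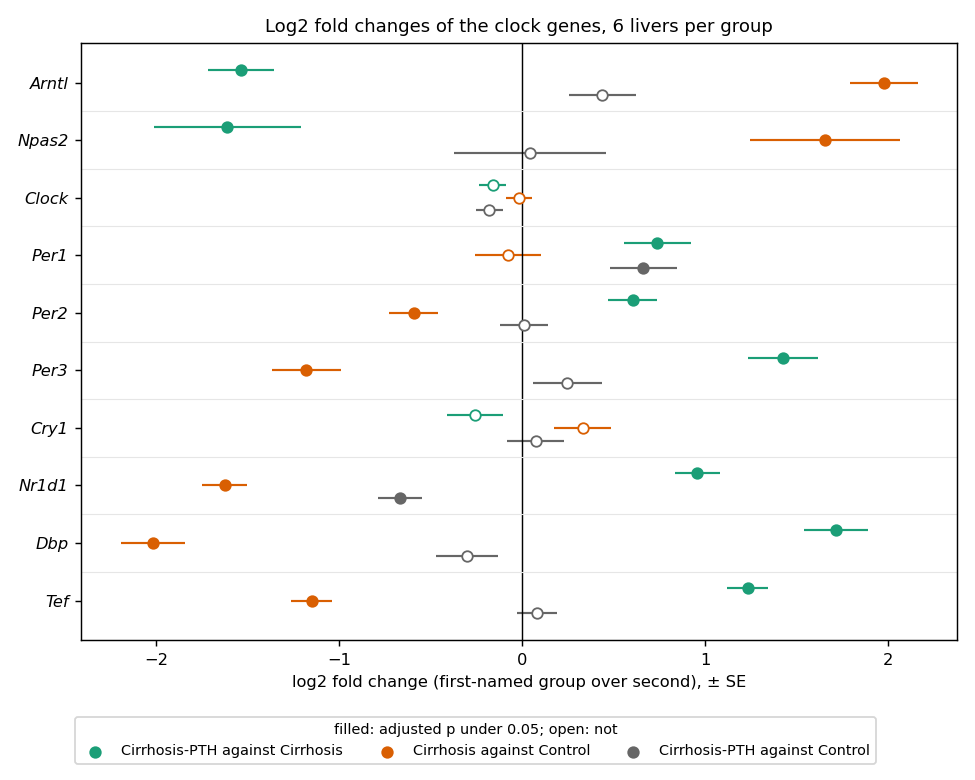
Log2 fold change ± SE of the 10 clock genes in the 3 comparisons from the fit to 18 libraries, with filled points for an adjusted p under 0.05 and open points for the rest. Green points (Cirrhosis-PTH against Cirrhosis) and orange points (Cirrhosis against Control) lie on opposite sides of 0 for Arntl, Npas2, Per2, Per3, Nr1d1, Dbp and Tef; both comparisons contain the Cirrhosis libraries, so this mirroring is partly built in.

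Arntl and Dbp were also set against each other in each mouse, as the log2 CPM of Dbp minus that of Arntl. This difference ranged from 4.06 to 5.58 in Cirrhosis-PTH livers, from 0.998 to 2.30 in Cirrhosis livers and from 5.47 to 6.52 in Control livers. The Cirrhosis livers lay below both other groups, as the ranges of the genes taken singly already fix, while the top of the Cirrhosis-PTH range met the bottom of the Control range. The lowest Cirrhosis-PTH value belonged to replicate 6, which had the highest Arntl and Cry1 and the lowest Nr1d1 and Dbp of its group. Among Cirrhosis livers, replicate 3 had the highest Per1, Per3, Nr1d1, Dbp and Tef, and replicate 5 had the lowest Per3, Dbp and Tef. Among Control livers, replicate 6 was highest and replicate 7 lowest in Per1, Per2, Per3 and Tef.

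**Figure D4:**
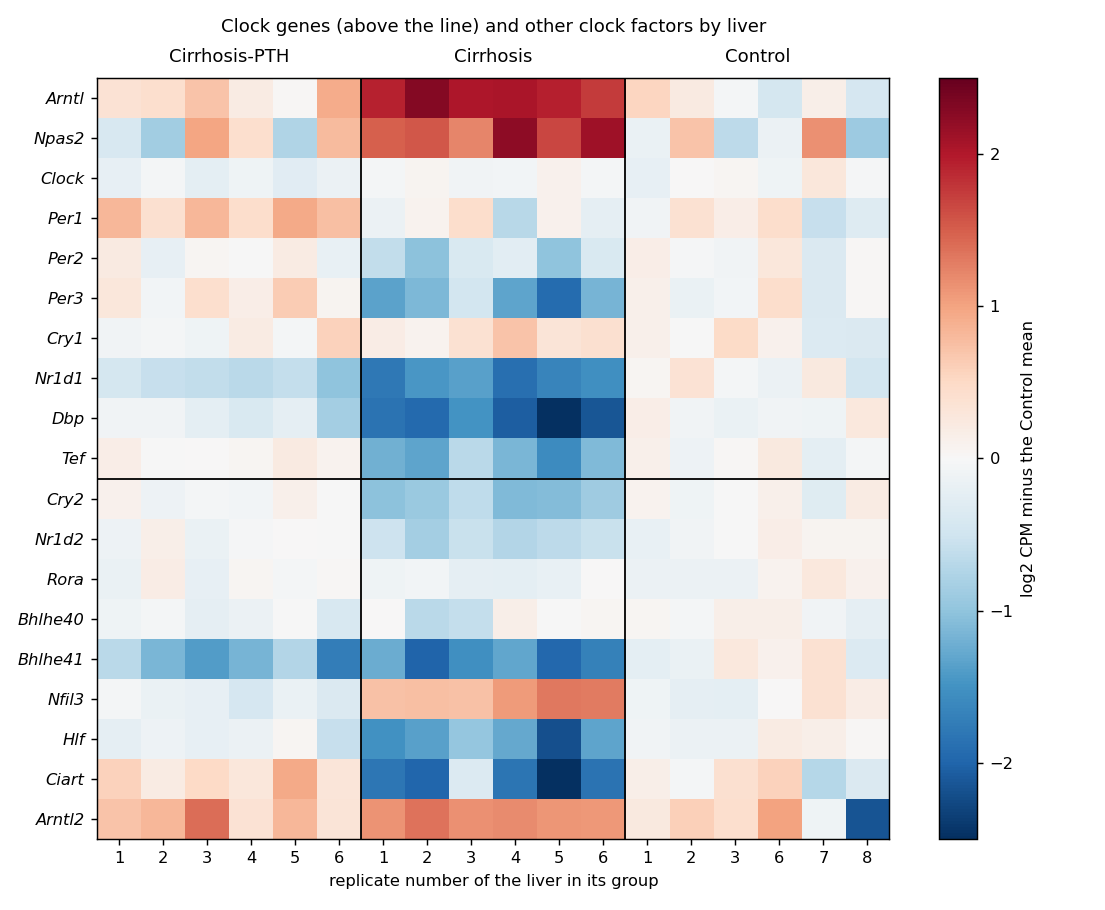
Level of the 10 clock genes (above the line) and 9 other clock factors (below it) in every liver as log2 CPM minus the mean of the 6 Control livers, with red for higher and blue for lower. Livers run in columns by replicate number as Cirrhosis-PTH, Cirrhosis and Control, and colours saturate at the ends of the bar. The Cirrhosis columns are high for Arntl and Npas2 and low for Per3, Nr1d1, Dbp and Tef.

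Levels were compared between genes as CPM per kilobase of exon, since longer transcripts collect more counts. In Cirrhosis-PTH livers the order of mean level was Tef at 23.1, Dbp at 21.2, Nr1d1 at 15.7, Per1 at 7.41, Per3 at 6.72, Per2 at 4.82, Clock at 2.70, Cry1 at 1.28, Arntl at 0.249 and Npas2 at 0.0556 CPM per kilobase. In Cirrhosis livers it was Tef at 9.82, Nr1d1 at 8.08, Dbp at 6.47, Per1 at 4.44, Per2 at 3.17, Clock at 3.02, Per3 at 2.501, Cry1 at 1.54, Arntl at 0.723 and Npas2 at 0.172 CPM per kilobase. In Control livers it was Dbp at 26.1, Nr1d1 at 24.9, Tef at 21.8, Per3 at 5.66, Per2 at 4.78, Per1 at 4.68, Clock at 3.06, Cry1 at 1.22, Arntl at 0.183 and Npas2 at 0.0544 CPM per kilobase. Cry1, Arntl and Npas2 were the lowest 3 in every group, and their ranges did not overlap with each other. Tef and Dbp, the top 2 in Cirrhosis-PTH livers, overlapped, as did Dbp, Nr1d1 and Tef in Control livers. In Cirrhosis livers no neighbours above Cry1 were separate.

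Other transcription factors of the clock were taken from a list of 10. Of these, 6 rose and 1 fell in Cirrhosis-PTH against Cirrhosis livers, with 3 not called and a median log2 fold change of 0.55, where 20.1% of all tested genes rose and 18.6% fell. Cry2, the second cryptochrome, was higher by 0.94 ± 0.09 (SE, adjusted p = 4.9e-08), and Hlf, the third PAR bZIP factor, by 1.21 ± 0.14 (SE, adjusted p = 1.43e-06). Nr1d2, the close relative of Nr1d1, was higher by 0.61 ± 0.07 (SE, adjusted p = 1.16e-06). Nfil3, described above, was the gene that fell. In Cirrhosis against Control livers 6 fell and 2 rose, with 2 not called and a median of -0.79, where 25% of all tested genes fell and 25.5% rose. There Cry2 fell by 0.95 ± 0.09, Nr1d2 by 0.64 ± 0.07 and Hlf by 1.40 ± 0.14 on the log2 scale (SE, adjusted p = 1.74e-08, 3.03e-07 and 1.17e-07). In Cirrhosis-PTH against Control livers Bhlhe41, a repressor at E-boxes also called DEC2, was the 1 gene called, at -1.13 ± 0.18 (SE, adjusted p = 0.000458). Over all tested genes 8.82% were called in that comparison. Bhlhe41 measured 2.58, 3.87 and 5.41 CPM in the lowest, median and highest Cirrhosis-PTH liver, against 2.15, 2.82 and 3.66 CPM in Cirrhosis livers and 6.84, 8.57 and 11.2 CPM in Control livers, so that both CCl4 groups lay below every Control liver.

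Genes known to be rhythmic in liver as clock outputs were taken from a list of 14, of which 12 rose, 0 fell and 2 were not called in Cirrhosis-PTH against Cirrhosis livers, where 20.1% of all tested genes rose and 18.6% fell, and the list's median log2 fold change was 1.16. Elovl3, a fatty acid elongase, measured 8.96 to 17.9 CPM in Cirrhosis-PTH livers, against 0.504 to 1.03 CPM in Cirrhosis livers and 28.7 to 54.7 CPM in Control livers, and the 3 groups did not overlap. It rose by 4.06 ± 0.23 on the log2 scale in Cirrhosis-PTH against Cirrhosis livers (SE, adjusted p = 8.36e-10) and had a log2 fold change of -1.73 ± 0.20 in Cirrhosis-PTH against Control livers (SE, adjusted p = 3.44e-05). Gys2, the liver glycogen synthase, rose by 1.17 ± 0.14 (SE, adjusted p = 1.29e-06), and Usp2, a ubiquitin protease, by 2.39 ± 0.32 (SE, adjusted p = 1.41e-05), in Cirrhosis-PTH against Cirrhosis livers. In Cirrhosis against Control livers 9 fell, 1 rose and 4 were not called, where 25% of all tested genes fell and 25.5% rose, with a median of -1.27. Elovl3 fell there by 5.79 ± 0.24 and Gys2 by 1.41 ± 0.14 on the log2 scale (SE, adjusted p = 8.99e-12 and 6.64e-08). In Cirrhosis-PTH against Control livers 1 rose and 3 fell, with 10 not called, where 6.34% of all tested genes rose and 2.48% fell.

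**Figure D5:**
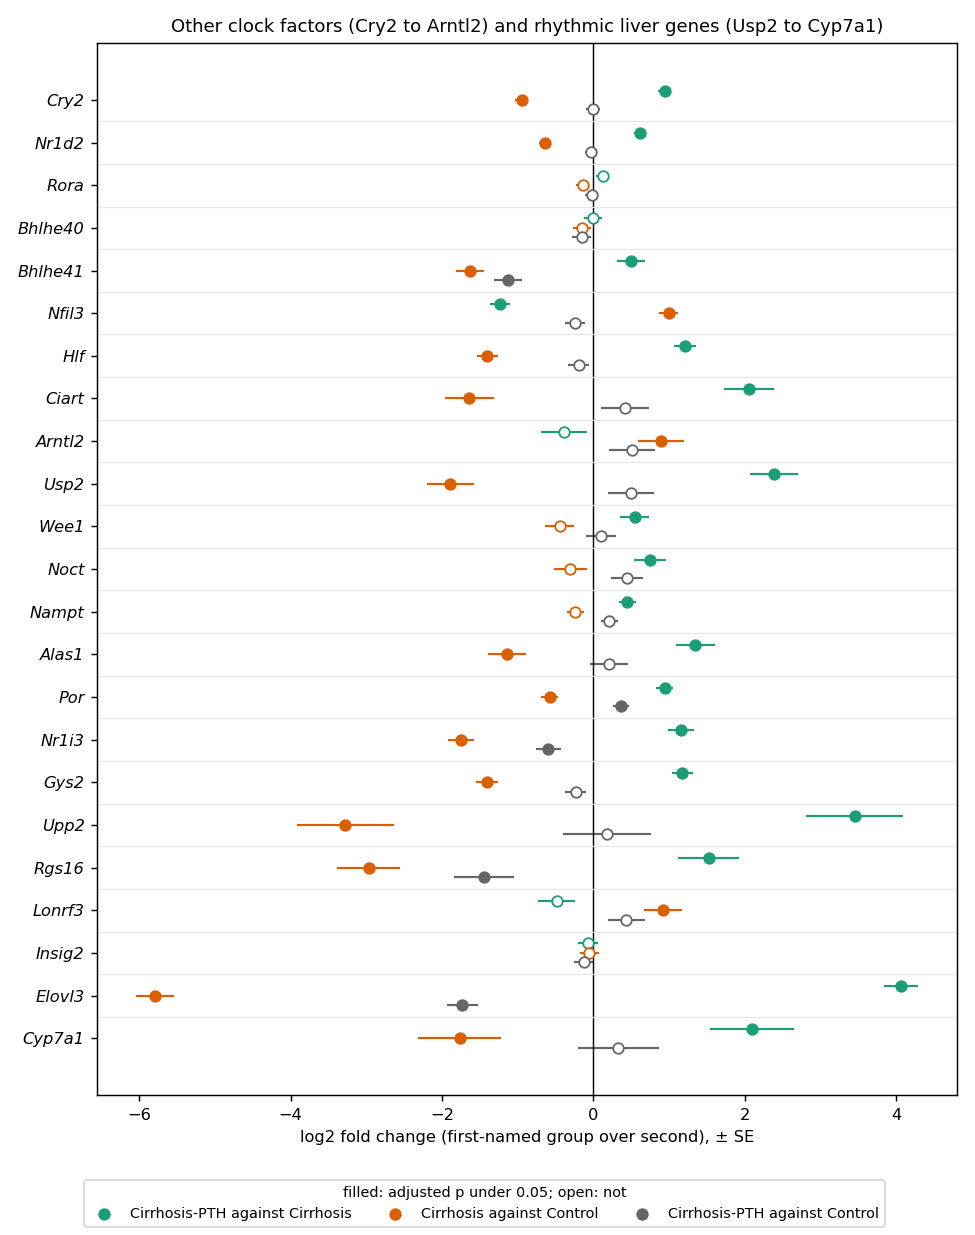
Log2 fold change ± SE of 9 other clock transcription factors (Cry2 to Arntl2) and 14 rhythmic liver genes (Usp2 to Cyp7a1) in the 3 comparisons, with filled points for an adjusted p under 0.05. Elovl3 lies farthest from 0, at 4.06 for Cirrhosis-PTH against Cirrhosis and -5.79 for Cirrhosis against Control.

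The genes that modify clock proteins gave no common direction. Of 13 kinases, ligases and cofactors, 5 rose and 4 fell in Cirrhosis-PTH against Cirrhosis livers (median log2 fold change 0.03), and 4 rose and 4 fell in Cirrhosis against Control livers (median -0.01). The shares called over all tested genes were 38.6% and 50.5% in these comparisons. Csnk1e, the casein kinase that marks PER proteins for degradation, fell by 0.50 ± 0.14 on the log2 scale in Cirrhosis-PTH against Cirrhosis livers (SE, adjusted p = 0.00598). It was higher by 0.61 ± 0.14 in Cirrhosis-PTH than in Control livers (SE, adjusted p = 0.00693). That was the 1 call of this list there, where 8.82% of all tested genes were called. Prkaa2, a catalytic subunit of the AMP-activated kinase that acts on cryptochromes, was higher by 0.60 ± 0.09 in Cirrhosis-PTH than in Cirrhosis livers (SE, adjusted p = 1.86e-05) and fell by 0.81 ± 0.09 in Cirrhosis against Control livers (SE, adjusted p = 2.67e-07).

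Signals that can reset the liver clock were examined through their response genes. Of 12 genes that respond to glucocorticoid or temperature, 8 fell and 2 rose in Cirrhosis-PTH against Cirrhosis livers, and 9 rose and 2 fell in Cirrhosis against Control livers. Over all tested genes 18.6% fell and 20.1% rose in the first comparison, and 25.5% rose and 25% fell in the second. Hspa1a, a heat shock chaperone, measured 0.302 to 1.25 CPM in Cirrhosis-PTH livers, against 2.98 to 14.5 CPM in Cirrhosis livers and 0.440 to 2.45 CPM in Control livers. It fell by 3.60 ± 0.51 on the log2 scale in Cirrhosis-PTH against Cirrhosis livers (SE, adjusted p = 1.95e-05). Hspa1b, Hsph1, Hspa8 and Hsp90aa1, also heat shock genes, fell too. The rest of this list was mixed in that comparison. Among genes that respond to glucocorticoid, Tsc22d3 rose by 0.87 ± 0.22 (SE, adjusted p = 0.00349), while Fkbp5 and Zbtb16 were not called. Sgk1 and Dusp1 fell by 0.44 ± 0.125 and 1.53 ± 0.40 (SE, adjusted p = 0.00796 and 0.006). Cirbp rose by 0.80 ± 0.14 and Rbm3 fell by 0.52 ± 0.08 (SE, adjusted p = 8.52e-05 and 2.68e-05). Sgk1, a kinase induced by glucocorticoids, was the gene of this list with the lowest p in Cirrhosis-PTH against Control livers. It was higher there by 0.84 ± 0.13 (SE, adjusted p = 0.000257), 1 of 3 that rose, where 6.34% of all tested genes rose. Of 12 genes that respond to fasting and feeding, 4 rose and 3 fell in Cirrhosis-PTH against Cirrhosis livers, and 3 rose and 6 fell in Cirrhosis against Control livers. The shares over all tested genes in these comparisons are those given above for the glucocorticoid and temperature list. Igfbp1, which fasting and liver stress induce, measured 5.59 to 20.4 CPM in Cirrhosis-PTH livers, against 169 to 280 CPM in Cirrhosis livers and 5.89 to 20.4 CPM in Control livers. Srebf1, which feeding induces, was higher by 1.19 ± 0.15 in Cirrhosis-PTH than in Cirrhosis livers (SE, adjusted p = 2.44e-06). Among genes that fasting induces, Pdk4, a pyruvate dehydrogenase kinase, fell by 2.25 ± 0.38 in the same comparison (SE, adjusted p = 0.00013), while Pck1, an enzyme of gluconeogenesis, rose by 1.08 ± 0.19 (SE, adjusted p = 0.000136), so the list gave no single direction. The part of these cues in the changes of the clock genes was not tested.

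Markers of several other cell types also differed between the groups. The 5 markers of stellate cells and myofibroblasts summed to 70.9 to 229 CPM in Cirrhosis-PTH livers, against 274 to 390 CPM in Cirrhosis livers and 34.3 to 78.3 CPM in Control livers. The 5 markers of recruited macrophages summed to 37.2 to 111 CPM in Cirrhosis-PTH livers, against 175 to 237 CPM in Cirrhosis livers and 5.28 to 12.3 CPM in Control livers. Cholangiocyte markers summed to 26.3 to 80.8 CPM in Cirrhosis-PTH livers, against 82.8 to 202 CPM in Cirrhosis livers and 17.8 to 42.0 CPM in Control livers. Neutrophil markers summed to 1.55 to 7.46 CPM, 8.44 to 101 CPM and 0.179 to 5.88 CPM in Cirrhosis-PTH, Cirrhosis and Control livers. The 101 CPM belonged to Cirrhosis replicate 2 alone, and the next highest Cirrhosis liver, replicate 5, had 12.8 CPM. Stellate cell, macrophage, cholangiocyte and neutrophil sums were thus higher in every Cirrhosis liver than in any liver of the other groups. Spp1 made up most of the cholangiocyte sum, with means of 35.1, 109 and 20.1 CPM in Cirrhosis-PTH, Cirrhosis and Control livers. Of its 5 markers, 2 were called lower and 3 were not called in Cirrhosis-PTH against Cirrhosis livers, where 18.6% of all tested genes fell. Krt19 measured 0.667 to 3.78 CPM in Cirrhosis-PTH livers and 1.17 to 2.11 CPM in Cirrhosis livers. Sums of sinusoidal endothelium markers overlapped between all groups, at 225 to 256, 205 to 240 and 221 to 252 CPM in Cirrhosis-PTH, Cirrhosis and Control livers. Those of resident Kupffer cell markers did too, at 71.9 to 160, 117 to 338 and 127 to 223 CPM in the same order. Lymphocyte markers summed to 3.25 to 4.02, 3.07 to 5.58 and 2.14 to 2.90 CPM. Their sums overlapped between the CCl4 groups, and every Control liver was below both. The 5 hepatocyte markers summed to 33986 to 37909 CPM in Cirrhosis-PTH livers, against 22643 to 41326 CPM in Cirrhosis livers and 34158 to 50609 CPM in Control livers. Alb, the albumin gene, made up most of this sum, with means of 29149, 25878 and 35064 CPM in these groups. Singly, 4 were called higher and 1 was not called in Cirrhosis-PTH against Cirrhosis livers, where 20.1% of all tested genes rose. All 5 were called lower in Cirrhosis against Control livers, where 25% of all tested genes fell. No marker of these lists was at 0 in every liver of a group. Single livers did reach 0: Ly6g was at 0 CPM in the lowest liver of each group and in the median of Control livers. The lowest Control liver was also at 0 for S100a8, Retnlg and Cxcr2, and the lowest Cirrhosis liver for Nkg7. In bulk tissue, fewer cells of a type and less RNA per cell cannot be told apart, and the part of cell makeup in the results on the clock genes was not tested.

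Within groups, mice with more Arntl did not show a detectable pattern in the other 9 genes. Across 27 relations of Arntl with another clock gene, each over the 6 mice of 1 group, Pearson's r ranged from -0.66 to 0.73, the lowest exact permutation p was 0.0958 and the lowest adjusted p was 0.921 (two-sided, 720 arrangements). With 6 mice in each group, a single relation would have to be nearly perfect to pass after adjustment over 27. The test therefore could not exclude a pattern. The genes whose deviations from the group means were most like those of Arntl over 18 livers were Lrch3, Smarcb1, Atp2a3, Map3k3 and Pear1, with Pearson's r of 0.82, 0.80, 0.78, 0.77 and 0.77 among 11746 genes compared. For Dbp they were Smarca2, Ccdc61, Repin1, Cradd and Kcnn2, with r of 0.89, 0.88, 0.86, 0.85 and 0.84. These are the extremes of many correlations between libraries that share depth and composition, and are given as a description.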

How the data were processed

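Gene counts of 18 liver libraries were used as the authors deposited them, as whole numbers per gene with no normalization. The submitters' processing notes name the build GRCm38 and, with no roles, Trim Galore, Bowtie2, HISAT2 (version 2.2.1), cutadapt (version 4.2), StringTie (version 2.1.5) and Bowtie (version 1.3.1). The annotation release and the strand setting of counting are not given in the sources used here. Groups and replicate numbers were taken from the labels. Genes passing edgeR's filterByExpr (21914 of 54752) were scaled by TMM and tested with edgeR 4.0.16 quasi-likelihood fits in R 4.3.3 over all 18 libraries, with Benjamini-Hochberg adjustment. The procedure was tested on simulated data in which far fewer genes changed than were called here. Scaling under so many changes was therefore not tested. With 24.5 M or more counts outside ribosomal RNA loci per library, Npas2 was the clock gene with under 36 counts in any library. Exon lengths and overlapping genes came from the GENCODE M21 annotation of GRCm38, and promoters from RefSeq (GRCm38.p6), which matched 9 of the 10 genes with 14 windows; Per2 is named only. The labels do not say whether replicates were processed on separate days, and p-values weigh group differences against the spread between these mice.

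The 10 genes and all lists were chosen with earlier results of these data known. Named were the 10 genes, list genes called in at least 1 comparison with up to 4 examples of smallest p per comparison, the 5 genes most like Arntl and like Dbp in within-group deviations (mean log2 CPM of at least 1), and genes overlapping a clock gene. Nfil3's promoter was chosen after its values were seen. One list gene enters the list counts but is not reported here by name. Alternatives were RLE size factors, DESeq2 1.42.0, leaving out ribosomal RNA loci, no filter on low counts, fits to the 12 libraries compared, a replicate block, and leaving out libraries.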

Additional observations from a re-analysis of the deposited data

How the results depend on the processing

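Direction and call of Arntl, Npas2, Per2, Per3, Nr1d1, Dbp and Tef in Cirrhosis-PTH against Cirrhosis and in Cirrhosis against Control were the same under every alternative run. Clock genes called numbered 8 to 9 and 7 to 8 in these comparisons, with single libraries left out and otherwise. The additional calls were Clock (-0.19 in Cirrhosis-PTH against Cirrhosis with RLE factors, adjusted p = 0.0412, with DESeq2, 0.0406, in the 12 libraries, 0.0248, and without Control replicates 7 and 8, 0.022; -0.16 without Control replicate 7, 0.0411) and Cry1 (0.36 in Cirrhosis against Control with DESeq2, adjusted p = 0.0481, and 0.44 without Control replicate 3, 0.0227). In Cirrhosis-PTH against Control the count of 2 became 1 with the replicate block and without Control replicates 7 and 8, which had the highest ribosomal RNA shares, and 1 to 2 with single libraries left out. The call of Per1 was the one lost (0.52, adjusted p = 0.0603, and 0.50, adjusted p = 0.09). The cause was not tested.

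Of the fold changes of clock and list genes under alternatives other than leaving out 1 library, 869 kept direction and call, 33 lost their call, 5 gained one and 10 changed sign. The sign changes were of values near 0. Clock in Cirrhosis against Control was 0.0157 with RLE factors, 0.0164 with DESeq2, 0.0103 with no filter, 0.0153 in the 12 libraries, 0.0467 with the replicate block and 0.105 without Control replicates 7 and 8. In Cirrhosis-PTH against Control, Per2 was -0.0836 and Cry1 -0.131 with the replicate block, and -0.0402 and -0.0505 without Control replicates 7 and 8. With single libraries left out, sign changed for Clock (-0.0563 to 0.0449) and Per1 (-0.193 to 0.0248) in Cirrhosis against Control, and for Npas2 (-0.20 to 0.34), Per2 (-0.0561 to 0.0705) and Cry1 (-0.0457 to 0.181) in Cirrhosis-PTH against Control.

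List counts moved by over 1.5 times in Cirrhosis-PTH against Control alone; in the other comparisons they moved by at most 2 genes. The kinase, ligase and cofactor list had 1 call, 2 with DESeq2 and 1 to 2 with libraries left out. The rhythmic outputs had 4 calls, 2 with no filter, 1 with the replicate block, 2 without Control replicates 7 and 8, and 1 to 4 with single libraries left out. The fasting and feeding genes had 1 call, 2 with DESeq2, 4 in the 12 libraries, 0 with no filter, 0 with the replicate block, 0 without Control replicates 7 and 8, and 0 to 3 with single libraries left out. Same-numbered mice did not deviate together (r of -0.06 to 0.05 over 14 pairs, 2 best with their own number), so no pairing by number was seen. This check carries no test and cannot exclude a shared day of processing. With the replicate block 8219, 9526 and 1354 genes were called in Cirrhosis-PTH against Cirrhosis, Cirrhosis against Control and Cirrhosis-PTH against Control, against 8464, 11073 and 1932 without it.

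The unknown sampling hour, 1 time point per mouse and the lack of a group given PTH without CCl4 limit what these values can show. Counts of Npas2 and of Control replicate 8 are the thinnest.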

Other observations

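The within-group deviations of Tef and Per3 were like those of some other clock genes but not of all, a feature chosen after their values were seen. Over 18 livers, Tef had a Pearson's r of 0.94 with Ciart and 0.92 with Usp2, and Per3 had an r of 0.90 with Ciart. Ciart encodes CHRONO, a repressor of the ARNTL pair. Tef and Per3 themselves had an r of 0.89. With the rest of the 10 clock genes, r of Tef ranged from 0.76 for Per2 to -0.67 for Clock. It was 0.03 for Nr1d1 and -0.18 for Arntl. For Per3 the range was 0.67 for Dbp to -0.67 for Clock, with -0.01 for Cry1. Ciart measured 14.3, 16.3 and 23.8 CPM in the lowest, median and highest Cirrhosis-PTH liver, against 1.74, 3.44 and 9.81 CPM in Cirrhosis livers and 7.53, 12.8 and 18.5 CPM in Control livers. These correlations carry no test.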
